A study of Mus musculus with 16 samples.

Results

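Immediate early genes are switched on within minutes of a growth stimulus, without new protein synthesis, and many of them encode transcription factors. The RNAs of 10 such genes and of closely linked targets, Fos, Fosl1, Jun, Junb, Atf3, Egr1, Ier2, Srf, Ctgf and Cyr61, were followed in protrusions and cell bodies of mouse fibroblasts. They were chosen by name for what they encode, with earlier results of these data known, and all 10 were among the 12900 RNAs measured. The cells were NIH/3T3, an established mouse fibroblast line, stably transduced with a lentivirus and selected with geneticin. In the HBB line doxycycline induced human β-globin RNA with its own 3′UTR, and in the Pkp4 cUTR line it induced the same coding sequence followed by the mouse Pkp4 3′UTR. Every group received doxycycline at 1 µg/ml for 72 h, was deprived of serum, spent 2 h on filters with 3 µm pores, had LPA in the lower chamber for 1 h and was fixed for 10 min in 0.3% paraformaldehyde. No group lacked LPA, so none of the values below measures induction by LPA. Protrusions (Ps) under the filter and cell bodies (CB) above it came from separate filters, and the 4 groups of 4 samples were HBB Ps, HBB CB, Pkp4 cUTR Ps and Pkp4 cUTR CB. The study describes the 4 repeats as independent. Each construct was present in 1 selected line, so the construct and the line cannot be told apart. In these bulk extracts, fewer cells holding an RNA and less of that RNA per cell cannot be told apart either.

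Lysophosphatidic acid (LPA) acts through cell surface receptors that signal to the MAP kinase cascade and to the actin cytoskeleton. MAP kinase acts on ternary complex factors, and actin assembly frees myocardin-related cofactors (MRTFs). Both routes meet at serum response factor (SRF), which binds CArG boxes, runs of A and T between CC and GG, in the promoters of immediate early and cytoskeletal genes. Tension also sends YAP and TAZ to the nucleus, where they act with TEAD factors on genes such as Ctgf and Cyr61. Many of the resulting RNAs are short-lived and carry AU-rich elements in their 3′UTRs, which speed their decay.

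Short sites known to act in such genes are shown here, promoter motifs and AU-rich elements. Promoters, reaching from 250 bases before to 50 bases after the start, were found in the RefSeq table (GRCm38.p6) for 6 members, Fos, Jun, Junb, Atf3, Srf and Cyr61. The CArG box was found in 1 of these 6 promoters, that of Srf, and in 1.63% of the 32851 promoters of the table, with both strands read. The Srf promoter held 2 such boxes, which ended 73 and 53 bases before the start. The TEAD letters GGAATG, or their complement CATTCC, occurred in 1 of 6 member promoters, that of Cyr61, and in 14.7% of all promoters. Neither the AP-1 letters TGANTCA (7.81% of all promoters) nor the CRE letters TGACGTCA (1.79%) occurred in any of the 6. In these stretches the motif is in capitals.
Srf promoter, CArG box (chr17:46556225-46556254, minus strand): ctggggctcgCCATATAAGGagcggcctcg
Cyr61 promoter, TEAD motif (chr3:145650071-145650100, minus strand): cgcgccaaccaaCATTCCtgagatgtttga
A match is a stretch of letters and not a measured binding site. Sites farther than 250 bases before the start, or with other letters, were not sought. A promoter without a match here may therefore still hold such a site.

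The 3′UTRs of the members were read from 1 protein-coding transcript per gene in the GENCODE vM21 annotation of GRCm38. The AU-rich letters TATTTAT occurred in 6 of the 10 members, against 28.1% of 11084 RNAs with a 3′UTR of at least 50 bases. The shorter ATTTA occurred in 9 of 10 members against 67.0%, and was absent from Ier2 only. Per kilobase of 3′UTR, ATTTA was densest in Cyr61 (7.25 per kb), while Ctgf held 1.87 per kb and the median RNA 1.24 per kb. These stretches show the first TATTTAT, in capitals, of the RNAs that the results below return to most often.
Cyr61 3′UTR, motif starting 556 bases after the stop codon: atgttttttTATTTATcaaagtgta
Jun 3′UTR, motif starting 1171 bases after the stop codon: gcttgtgcaTATTTATaatagcgtt
Fos 3′UTR, motif starting 656 bases after the stop codon: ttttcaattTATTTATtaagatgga
Fosl1 3′UTR, motif starting 570 bases after the stop codon: ggcagctgcTATTTATtttcctaaa
The genes are compact as well. The span of 9 of 10 members was below the median of 23452 bases, with Atf3 (47744 bases) as the exception, and all 10 had fewer exons than the median of 9.

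The 16 samples held 18660287 to 31260831 reads counted on genes. At this depth 3 reads corresponded to between 0.0890 and 0.176 counts per 1000000 reads (CPM). Of 9 fibroblast markers 8 were in the table, with a summed level of 25950 to 31540 CPM in cell bodies and 19270 to 22550 CPM in protrusions. The 2 endothelial markers listed, Pecam1 and Cdh5, summed to at most 1.87 CPM, and 4 macrophage markers to at most 44.7 CPM. The 2 epithelial markers listed, Cdh1 and Krt14, summed to between 147 and 183 CPM in the HBB line and between 215 and 275 CPM in the Pkp4 cUTR line, and the muscle marker Des stood at 20.5 to 65.0 CPM. The part of other cell types in the results was not tested. Pkp4 RNA, which reads of the construct's 3′UTR also raise, was higher in the Pkp4 cUTR line by a log2 fold change of 4.44 in cell bodies and 3.32 in protrusions. Some protrusion samples stood apart for the members. Replicate 3 of the Pkp4 cUTR protrusions was the highest of its group for 9 of 10 members, and for 33.6% of 10154 RNAs with a mean log2 CPM above 1. In HBB protrusions, replicate 4 was the highest for 8 of 10 members, and for 20.3% of those RNAs. Replicate 2 was the lowest for 8 of 10 members, and for 30.6% of those RNAs.

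Levels of different RNAs were compared as CPM per kilobase of exon, averaged over the 16 samples. Ier2, a small nuclear protein of the early response, was the most abundant at 25.1 CPM per kb, and Junb, a partner of Fos in AP-1, followed at 24.1. Srf (20.8), Ctgf (19.7), Fosl1 (17.0), Egr1 (14.7) and Jun (14.5) came next, and the sample ranges of neighbours in this order overlapped. Cyr61 stood at 4.56 CPM per kb with a range of 1.97 to 9.10. Fos, the founding member of the family, was near the bottom at 0.636 CPM per kb and its range took in that of Atf3, a stress-induced factor, at 0.624. The reads behind Fos numbered 17 to 77 per sample and those behind Atf3 17 to 52, against 521 or more for the 7 most abundant members.

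**Figure D1:**
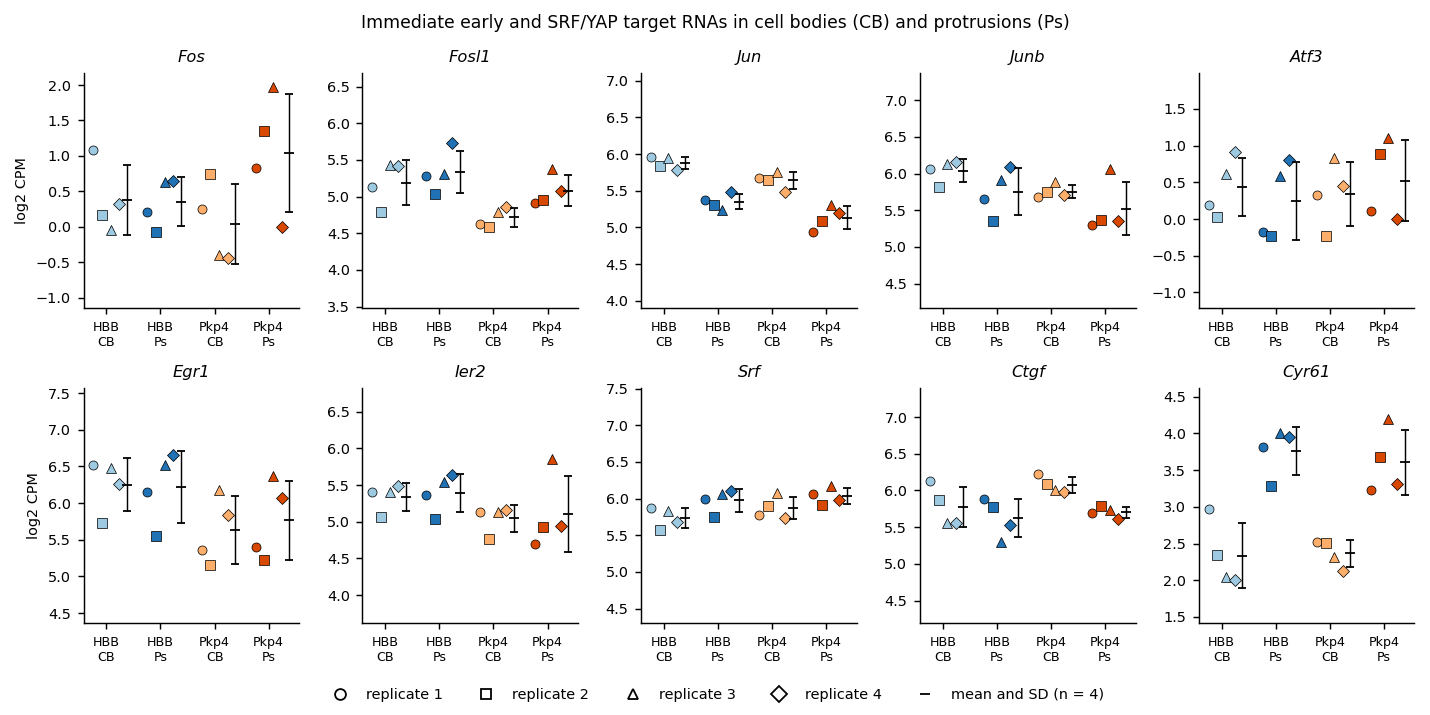
Deposited log2 CPM (vertical axes, each panel on its own range) of the 10 member RNAs in the 4 groups, with the marker shape giving the replicate number and a bar for the mean and SD (n = 4). All 8 protrusion samples of Cyr61 lie above the 8 cell body samples, while the groups of Egr1 and Ier2 overlap and spread widely.

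Cyr61 was the one member with a large difference between the fractions. It encodes a secreted matrix protein of the CCN family and is among the best known YAP targets. In HBB cell bodies its log2 CPM was 2.97, 2.34, 2.04 and 2.00 in replicates 1 to 4, and in HBB protrusions 3.82, 3.28, 4.00 and 3.95. In the Pkp4 cUTR line the values were 2.52, 2.51, 2.31 and 2.13 in cell bodies and 3.23, 3.68, 4.20 and 3.31 in protrusions. In both lines every protrusion sample was above every cell body sample. The mean level was 5.23 ± 1.79 CPM (SD, n = 4) in HBB CB against 13.8 ± 2.84 in HBB Ps, and 5.17 ± 0.645 against 12.6 ± 4.13 in the Pkp4 cUTR line. The log2 fold change of protrusions over cell bodies was 1.41 (SE 0.22, 95% interval 0.94 to 1.88, limma adjusted p = 3.71e-05) in HBB cells and 1.22 (SE 0.23, interval 0.74 to 1.71, adjusted p = 0.000209) in Pkp4 cUTR cells. Scaling each sample to its total reads left 1.18 and 0.97, with both still called.

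Ctgf, the other CCN member and the usual companion of Cyr61 as a YAP target, was not higher in protrusions. Its log2 CPM in HBB cells was 6.12, 5.88, 5.56 and 5.56 in cell bodies and 5.88, 5.77, 5.30 and 5.53 in protrusions. The Pkp4 cUTR line gave 6.22, 6.09, 6.01 and 5.97 in cell bodies and 5.69, 5.79, 5.73 and 5.61 in protrusions. The HBB groups overlapped and the Pkp4 cUTR groups did not. The log2 fold change was -0.16 (SE 0.12, adjusted p = 0.297) in HBB cells and -0.37 (SE 0.12, interval -0.63 to -0.11, adjusted p = 0.0164) in Pkp4 cUTR cells. With the first Pkp4 cUTR CB sample (replicate 1) left out, the latter was -0.32 with an adjusted p of 0.0532. With scaling to total reads the HBB value became -0.39 (adjusted p = 0.0179).

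The pair was also set side by side within each sample, which needs no scaling of libraries. This ratio, and that of Fosl1 to Jun, were chosen after their values had been seen. The adjustment covers these ratios only, and not the other pairs of members. Cyr61 and Jun alone were already separate between the fractions in both lines, so the ratios are no separate support for them. The log2 ratio of Cyr61 to Ctgf was higher in protrusions by 1.58 in HBB cells (-1.86 ± 0.526 against -3.44 ± 0.192, SD, n = 4) and by 1.61 in Pkp4 cUTR cells (-2.10 ± 0.406 against -3.71 ± 0.106). In each line the groups were separate, and a two-sided exact permutation test over 70 relabellings gave p = 0.0286, the smallest it can give, or 0.0457 adjusted over 8 such comparisons. Between the cell bodies of the lines the ratio was lower in the Pkp4 cUTR line, a difference of -0.27, with the same p and adjusted p, and between the protrusions the difference was -0.24 (exact permutation p = 0.514).

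Among the AP-1 genes, Jun was lower in protrusions in both lines. Jun protein pairs with Fos family proteins to form AP-1, and its single-exon gene (chr4:95049034-95052222, GRCm38, minus strand) is an early target of growth signals. Its log2 CPM in HBB cells was 5.96, 5.84, 5.94 and 5.79 in cell bodies and 5.38, 5.31, 5.24 and 5.48 in protrusions. The Pkp4 cUTR values were 5.68, 5.65, 5.76 and 5.48 in cell bodies and 4.94, 5.09, 5.31 and 5.19 in protrusions. No protrusion sample reached the cell body samples of its own line. The log2 fold change was -0.53 (SE 0.08, interval -0.70 to -0.36, adjusted p = 3.15e-05) in HBB cells and -0.51 (SE 0.08, interval -0.69 to -0.33, adjusted p = 6.24e-05) in Pkp4 cUTR cells. Jun was also the steadiest member, with a pooled SD within groups of 0.12, above 45.0% of 1798 RNAs of like level.

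Fosl1 encodes Fra-1, a Fos family protein that accumulates later than Fos after a stimulus. Its log2 CPM was 5.13, 4.79, 5.43 and 5.41 in HBB cell bodies and 5.28, 5.03, 5.31 and 5.73 in HBB protrusions, which overlapped. For the Pkp4 cUTR line it was 4.63, 4.59, 4.79 and 4.86 in cell bodies and 4.91, 4.95, 5.37 and 5.08 in protrusions, which did not. Its log2 fold change was 0.15 (SE 0.15, adjusted p = 0.399) in HBB cells and 0.36 (SE 0.15, interval 0.04 to 0.68, adjusted p = 0.0489) in Pkp4 cUTR cells. The Pkp4 cUTR call was lost when any of 9 samples was left out, with adjusted p-values up to 0.172, and scaling to total reads gave -0.09 and 0.10 (adjusted p = 0.583). Relative to Jun in the same sample, Fosl1 was higher in protrusions by 0.68 in HBB cells and 0.87 in Pkp4 cUTR cells (exact permutation p = 0.0286, adjusted 0.0457, in each line). This ratio, chosen after its values were seen, contains the lower Jun of both lines and is no separate support for Fosl1.

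Fos was too low for a firm value. In HBB cells its log2 CPM was 1.08, 0.17, -0.05 and 0.31 in cell bodies and 0.21, -0.07, 0.63 and 0.64 in protrusions, a log2 fold change of -0.03 (SE 0.38, adjusted p = 0.953). In Pkp4 cUTR cells it was 0.25, 0.75, -0.39 and -0.45 in cell bodies and 0.83, 1.35, 1.97 and 0.00 in protrusions, a log2 fold change of 0.98 (SE 0.37, interval 0.21 to 1.76, adjusted p = 0.0307). Each Pkp4 cUTR protrusion sample was above the cell body sample of the same number. But the fractions were not paired by number, the share of all RNAs in that order was not counted, and the groups overlapped. The call rested on single samples, since leaving out any of 4 Pkp4 cUTR samples ended it (CB replicates 3 and 4, Ps replicates 2 and 3), and without Ps replicate 3 the value was 0.67 (adjusted p = 0.125). Scaling to total reads (0.75, adjusted p = 0.0753) and quantile normalization (0.86, adjusted p = 0.0566) also ended the call.

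Fosb, the nearest relative of Fos and no member, followed the same samples at 249 to 916 reads each. Its log2 CPM, each RNA centred on its own mean, differed from that of Fos by a root mean square of 0.24 over the 16 samples. This was the smallest difference among 10154 RNAs, whose median was 0.66. In Pkp4 cUTR protrusions Fosb was at 4.31, 5.54, 5.53 and 3.88 in replicates 1 to 4, and in the matching cell bodies at 3.94, 4.41, 3.71 and 3.39. As with Fos, replicates 2 and 3 of the protrusions were high and replicate 4 was low. The log2 fold change of Fosb was 0.94 (SE 0.33, adjusted p = 0.0201) in Pkp4 cUTR cells and 0.04 (SE 0.32, adjusted p = 0.930) in HBB cells. The Pkp4 cUTR groups of Fosb overlapped, and its call too was lost with scaling to total reads (0.68, adjusted p = 0.0646).

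Junb and Atf3 gave no call in either line. The mean log2 CPM of Junb was 6.04 ± 0.15 in HBB CB, 5.75 ± 0.32 in HBB Ps, 5.75 ± 0.09 in Pkp4 cUTR CB and 5.52 ± 0.36 in Pkp4 cUTR Ps (SD, n = 4). The log2 fold changes were -0.29 (SE 0.15, adjusted p = 0.114) and -0.23 (SE 0.15, adjusted p = 0.212). In Pkp4 cUTR protrusions replicate 3 stood at 6.07 while the others stood at 5.29 to 5.37, and without it the value was -0.41 (adjusted p = 0.0138) and the HBB value, -0.29, was called as well (adjusted p = 0.0424). Without replicate 4 of the HBB protrusions the HBB value was -0.40 (adjusted p = 0.0385). Scaling to total reads also turned both into calls, at -0.52 (adjusted p = 0.00271) and -0.49 (adjusted p = 0.00511). For Atf3 the values were -0.18 (SE 0.31, interval -0.83 to 0.47) and 0.15 (SE 0.30, interval -0.49 to 0.79), with 52 reads or fewer in each sample.

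Egr1, a zinc finger factor and a standard read-out of SRF and its ternary complex factors, gave no call between the fractions. Its log2 CPM in HBB cells was 6.52, 5.74, 6.48 and 6.26 in cell bodies and 6.15, 5.55, 6.52 and 6.65 in protrusions. In Pkp4 cUTR cells it was 5.35, 5.16, 6.18 and 5.84 in cell bodies and 5.40, 5.23, 6.37 and 6.07 in protrusions. The fractions overlapped over most of their range. Each Pkp4 cUTR protrusion sample was above the cell body sample of its number. The fractions came from separate filters and were not paired by number, and the share of all RNAs in that order was not counted. The log2 fold change was -0.03 (SE 0.27, interval -0.59 to 0.53) in HBB cells and 0.13 (SE 0.27, interval -0.44 to 0.71) in Pkp4 cUTR cells. For Ier2 the values were 0.06 (SE 0.18, interval -0.33 to 0.44) and 0.06 (SE 0.19, interval -0.33 to 0.46), and its groups overlapped in both lines.

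Srf, the factor that many of these genes answer to, differed little. Its log2 CPM in HBB cells was 5.88, 5.58, 5.83 and 5.67 in cell bodies and 5.99, 5.75, 6.07 and 6.11 in protrusions. The groups overlapped. Each protrusion sample was above the cell body sample of its number, but the share of all RNAs in that order was not counted. The log2 fold change was 0.24 (SE 0.09, interval 0.04 to 0.44, adjusted p = 0.0368) in HBB cells and 0.16 (SE 0.09, interval -0.04 to 0.36, adjusted p = 0.150) in Pkp4 cUTR cells. The HBB call was lost without any of 5 single samples, and with scaling to total reads the value was 0.00 (adjusted p = 0.984) in HBB cells and -0.10 in Pkp4 cUTR cells.

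**Figure D2:**
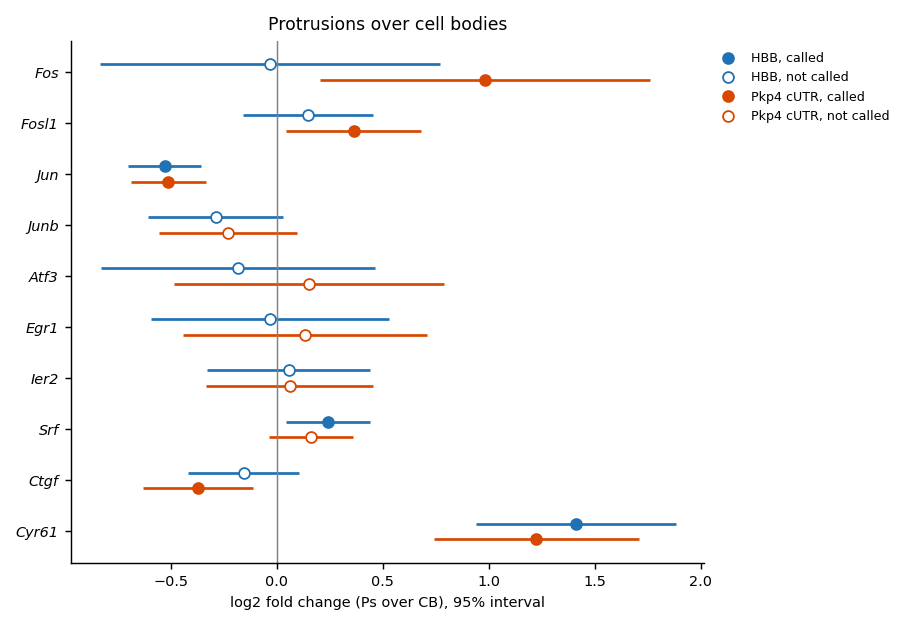
Log2 fold change of protrusions over cell bodies (horizontal axis) for the 10 members, with 95% intervals, in HBB (blue) and Pkp4 cUTR cells (orange). Filled points passed an adjusted p of 0.05, and the intervals of Cyr61 and Jun lie clear of 0 in both lines.

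Over the whole table, 28.3% of RNAs were called higher and 28.9% lower in HBB protrusions at a limma adjusted p under 0.05, 57.3% in all. The members had 2 higher (Cyr61, Srf) and 1 lower (Jun) of 10. In Pkp4 cUTR cells 3 were higher (Fos, Fosl1, Cyr61) and 2 lower (Jun, Ctgf), against 28.2% and 28.5% of all RNAs, 56.7% in all. The groups did not overlap for Cyr61 and Jun in HBB cells (25.5% of all RNAs without overlap and higher, 26.8% lower). In Pkp4 cUTR cells they did not overlap for Cyr61, Fosl1, Jun and Ctgf (22.6% higher, 22.2% lower). A difference above 2-fold with an unadjusted p under 0.05 was seen for Cyr61 only, in both lines, against 4.54% of RNAs higher in HBB and 5.07% in Pkp4 cUTR cells. The split of calls depended on the scaling of libraries. Scaling to total reads moved the median log2 fold change of all RNAs by -0.24 in HBB and -0.26 in Pkp4 cUTR cells, and the share of calls that were higher from 49.5% to 25.7% and from 49.7% to 23.5%. Of all RNAs, 15% were then called higher and 43.5% lower in HBB cells and 13.9% and 45.5% in Pkp4 cUTR cells, with medians of -0.23 and -0.25. On that scale 1 member was higher (Cyr61) and 3 were lower (Jun, Junb, Ctgf) in each line.

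The Pkp4 3′UTR was expressed to compete for the localization of RNAs at protrusions, and its effect on an RNA is measured by the difference of the log2 fold changes between the lines. None of the 10 members and none of the 12900 RNAs passed an adjusted p of 0.05 in limma, and 300 RNAs (2.33%) had an unadjusted p under 0.05, with no member among them. The difference was 1.02 for Fos (SE 0.53, interval -0.10 to 2.13), the largest of the 10. It was 0.02 for Jun (SE 0.12, interval -0.23 to 0.27) and -0.19 for Cyr61 (SE 0.32, interval -0.86 to 0.49). For Ctgf and Fosl1, called in one line alone, it was -0.22 (interval -0.58 to 0.15) and 0.21 (interval -0.23 to 0.66), so their difference between the lines was not shown.

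Related RNAs were counted over lists of named genes. Among early response genes outside the members, more were called lower in protrusions than higher, and this held with scaling to total reads, where more of all RNAs were lower too. Without that scaling, 28.9% of all RNAs were lower and 28.3% higher in HBB cells. Of 22 other immediate early transcription factors, 11 were lower and 1 higher in HBB cells, and 10 and 1 in Pkp4 cUTR cells, with a median log2 fold change of -0.31 and -0.33 where the median of all RNAs was 0.01. Among the lower ones were Csrnp1 (-0.82 and -0.76), Myc (-0.66 and -0.72), a driver of cell growth, and Klf4 (-0.56 and -0.72). Of 20 feedback inhibitors of growth factor signalling, 12 were lower and 1 higher in each line, at a median of -0.41 and -0.41. They included the MAP kinase phosphatase Dusp1 (-0.89 and -0.86) and Zfp36l2 (-0.88 and -1.12), a protein that binds AU-rich elements. The higher one was Spred1 (0.41 and 0.40), which lost its call with scaling to total reads. Of 23 early induced signalling and secreted factors, 11 and 12 were lower and 1 was higher.

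Of the 11 measured AP-1 relatives outside the members, 3 were higher and 3 lower in each line, or 2 and 5 in HBB and 1 and 5 in Pkp4 cUTR cells with scaling to total reads. Maff, a small Maf protein, was higher by 1.09 (SE 0.11, adjusted p = 3.07e-07) in HBB and 0.80 (SE 0.12, adjusted p = 1.80e-05) in Pkp4 cUTR cells. Its relative Mafg was lower by -0.79 (SE 0.10) and -0.71 (SE 0.10). Fosl2, which encodes Fra-2, was lower at -0.63 and -0.67, while Jund, the remaining Jun gene, was not called at 0.18 and 0.10. Mafk, another small Maf gene, was higher in HBB cells at 0.53 and stood at 0.20 in Pkp4 cUTR cells (adjusted p = 0.168).

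Of 16 RNAs of a YAP/TAZ target signature without Ctgf and Cyr61, 10 were lower and none higher in HBB cells, and 11 were lower and 1 higher in Pkp4 cUTR cells, with a median of -0.55 and -0.54. The kinase gene Nuak2 (-0.78 and -0.85) and the tissue factor gene F3 (-0.75 and -0.98) were among the lower ones. The 1 higher RNA, Ankrd1 (0.72, adjusted p = 0.0260), had at most 22 reads in a sample. Of 21 cytoskeletal SRF/MRTF targets, 10 were higher and 4 lower in each line, with a median of 0.33 and 0.25, but with scaling to total reads 5 were higher and 7 lower in HBB cells and 3 and 8 in Pkp4 cUTR cells. The medians were then 0.09 and -0.01 where those of all RNAs were -0.23 and -0.25, so the list lay above all RNAs on both scales. Cald1, an actin-binding protein, was higher by 0.93 and 1.12, and Itga5, an integrin subunit, was lower at -1.13 and -0.95. On that scale the YAP/TAZ signature stood at 11 and 12 lower and none higher.

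Of 22 Hippo pathway and TEAD RNAs, 9 were higher and 4 lower in HBB cells and 8 and 5 in Pkp4 cUTR cells, at medians of 0.14 and 0.05, which scaling to total reads turned to -0.10 and -0.22 (6 higher and 7 lower, 4 and 10) beside -0.23 and -0.25 for all RNAs. Yap1 itself was not called (0.09 and -0.12). Wwtr1, which encodes TAZ, was higher at 0.46 and 0.25, the latter turning to -0.02 with scaling to total reads. Of 6 SRF cofactors, Elk4 was higher (0.25 and 0.30), while Hdac7 and Mkl1, which encodes MRTF-A, were lower (-0.58 and -0.43 for Mkl1). The Elk4 calls were lost with scaling to total reads. On that scale 5 of 6 were lower and none higher in each line, where 43.5% and 45.5% of all RNAs were lower. Neither of the 2 other CCN RNAs measured, Wisp1 and Wisp2, was called, although both were lower in each line with scaling to total reads.

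**Figure D3:**
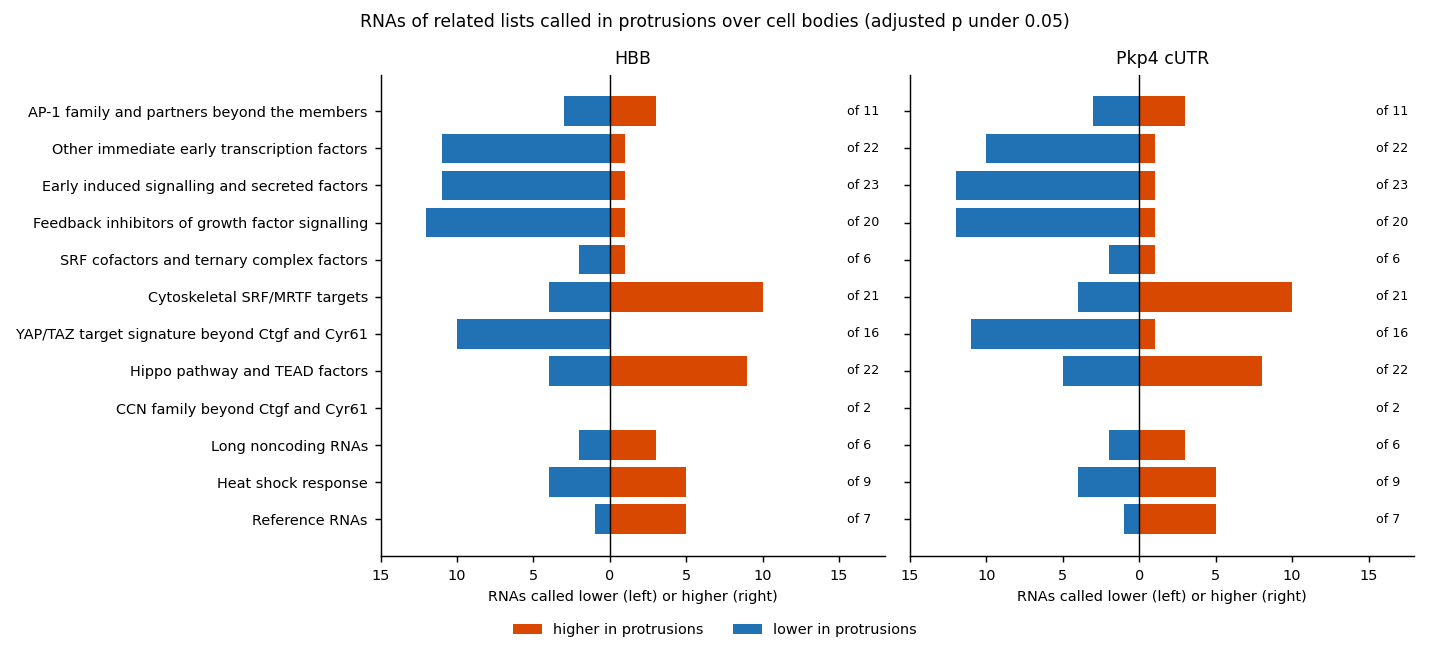
Number of RNAs of each list called higher (orange, right) or lower (blue, left) in protrusions over cell bodies at an adjusted p under 0.05, with the number measured at the right of each panel. With scaling to total reads, which moved the median of all RNAs by -0.24, the cytoskeletal targets turn to 5 higher and 7 lower in HBB cells, while the YAP/TAZ signature has no RNA higher in HBB cells on either scale.

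The 6 long noncoding RNAs measured had all been listed as retained in the nucleus, Gas5, Airn and Mirg included. Of these, 3 were higher and 2 lower in each line, or 1 higher and 3 and 2 lower with scaling to total reads. The list therefore did not move in 1 direction. The lower ones were Malat1 (-1.85 and -1.27) and Neat1 (-1.48 and -1.21), both known to stay in the nucleus. Gas5, known as a small nucleolar RNA host whose spliced RNA reaches the cytoplasm, was higher at 1.63 and 1.40, as were Airn (0.95 and 1.01) and Mirg (0.65 and 0.53), whose calls were lost with scaling to total reads. Of 9 heat shock RNAs, 5 were higher (Hsp90aa1 at 1.33 and 1.80) and 4 lower (Hspa1a at -0.89 and -0.88). Of 7 reference RNAs, 5 were higher and 1 lower, with medians of 0.50 and 0.44. Among the higher ones were Gapdh at 0.59 and 0.57 and Arpc3, a diffuse control RNA of the study, at 0.50 and 0.44. With scaling to total reads 4 were higher in each line, and 1 and 2 were lower. The medians were then 0.26 and 0.18, beside -0.23 and -0.25 for all RNAs. The part of nuclear RNA in the members' values was not tested.

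The lines were also compared within each fraction. No member was called in cell bodies, where 8.97% of all RNAs were called, nor in protrusions, where 7.16% were. Without adjustment, the intervals of Egr1, Fosl1, Jun and Ctgf in cell bodies and of Jun in protrusions lay clear of 0. The share of all RNAs with such an interval was not counted. Egr1 was lower in Pkp4 cUTR cell bodies at -0.61 (SE 0.27, interval -1.18 to -0.05, adjusted p = 0.177) and Fosl1 at -0.47 (SE 0.15, interval -0.78 to -0.16, adjusted p = 0.0521). Jun stood at -0.24 (SE 0.08, adjusted p = 0.0747), the one member whose cell body groups did not overlap (8.11% of all RNAs without overlap and lower, 6.49% higher), and Ctgf at 0.29 (SE 0.12, adjusted p = 0.151). In protrusions Egr1 stood at -0.45 (SE 0.27, adjusted p = 0.358), Jun at -0.22 (SE 0.09, interval -0.40 to -0.04, adjusted p = 0.135) and Fos at 0.68 (SE 0.38, adjusted p = 0.303). The protrusion groups of all 10 members overlapped, against 6.31% of all RNAs without overlap and higher and 7.4% lower.

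The samples of the lines that carry one number moved jointly around their group means, so the replicate number was also taken as a block. With the block shared by all groups, 3 members were called in cell bodies, Egr1 (-0.61, adjusted p = 0.00738), Fosl1 (-0.48, adjusted p = 0.00451) and Ctgf (0.29, adjusted p = 0.0406), against 11.2% of all RNAs. In protrusions 1 was called, Egr1 (-0.45, adjusted p = 0.0434), against 10.3%. With a block within each fraction, chosen after seeing the data, 5 members were called in cell bodies, with Jun (-0.24) and Junb (-0.29) added, against 22.5%, and 2 in protrusions, Egr1 and Jun, against 19.3%. Egr1 was lower in the Pkp4 cUTR line in 4 of 4 same-numbered comparisons in each fraction. In cell bodies this held for Fosl1, Jun, Junb and Ier2 as well, and Ctgf was higher in 4 of 4. In protrusions it held for no other member. How many of all RNAs showed such a run was not counted.

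**Figure D4:**
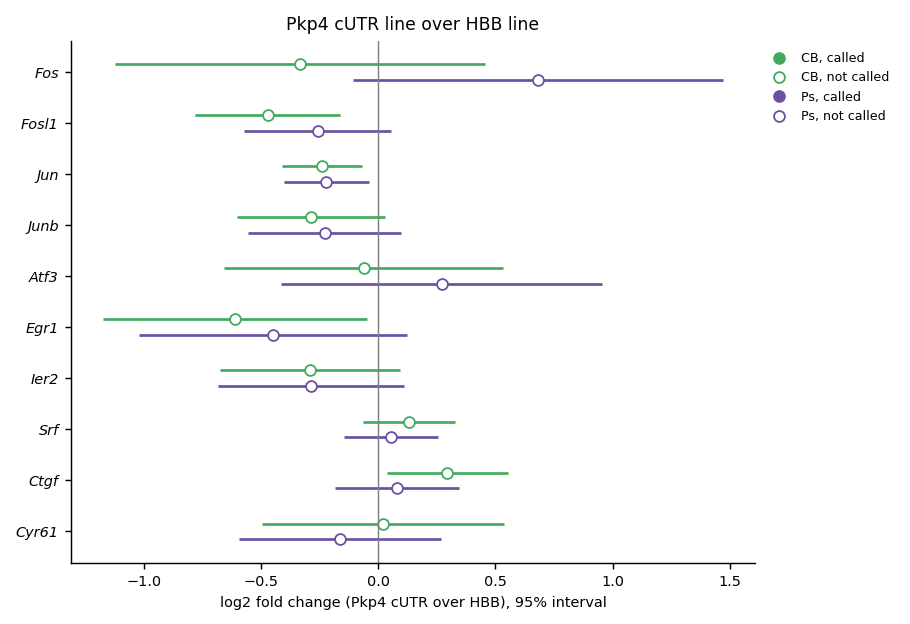
Log2 fold change of the Pkp4 cUTR line over the HBB line (horizontal axis) in cell bodies (green) and protrusions (purple) for the 10 members, with 95% intervals from the fit without a block. All points are open, since no member passed an adjusted p of 0.05, and the point of Egr1 lies at -0.61 in cell bodies and -0.45 in protrusions.

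Several listed relatives did pass the test between the lines without the block. Thbs1, a secreted matrix protein gene, was lower in Pkp4 cUTR cell bodies at -1.31 (SE 0.17, adjusted p = 4.33e-05), the chemokine gene Ccl2 at -0.81 (SE 0.08), the CCN gene Wisp2 at -0.99 (SE 0.10) and the early factor Csrnp1 at -0.93 (SE 0.15). The orphan receptor gene Nr4a1 was lower at -0.53 (SE 0.14, adjusted p = 0.0194). Myl9, a myosin light chain and SRF target, was lower at -1.02 (SE 0.10), and Edn1, which encodes endothelin, was higher at 1.45 (SE 0.21). In protrusions Thbs1 (-1.30), Ccl2 (-0.85), Wisp2 (-0.89), Csrnp1 (-0.88), Nr4a1 (-0.49), Myl9 (-1.02) and Edn1 (1.40) were called in the same directions. Of 23 early signalling and secreted factors, 8 were lower and 2 higher (Edn1, Sgk1) in cell bodies, against 5.55% and 3.42% of all RNAs. In protrusions 4 were lower and 2 higher, against 4.26% and 2.89%. In cell bodies 3 of 22 other immediate early factors, 4 of 21 cytoskeletal targets and 1 of 20 feedback inhibitors were lower and none higher. None of 11 AP-1 relatives was called. Of 16 YAP/TAZ signature RNAs, 2 were higher (Amotl2, Fjx1), and of 22 Hippo and TEAD RNAs 3 (Sav1, Tead4, Tead2), with none lower. Amotl2, Fjx1 and Tead4 lost these calls with scaling to total reads.

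Within groups, most members varied more than RNAs of like level. The pooled SD of log2 CPM within groups was 0.47 for Egr1, above 99.8% of 1608 RNAs of like level. It was 0.32 for Ier2 (above 98.6% of 1877 RNAs), 0.26 for Junb (above 97.0%), 0.37 for Cyr61 (above 96.7%) and 0.24 for Fosl1 (above 95.5%). Srf (0.14, above 64.9%) and Jun (0.12) were near the middle. This spread followed the replicate number in part. Replicate 2 was the lowest of its group for Egr1 in 4 of 4 groups, a pattern held by 0.798% of 10154 RNAs with a mean log2 CPM above 1. Some 1 number, whichever it was, was the lowest in every group for 2.61% of them. Replicate 2 was also the lowest in 3 of 4 groups for Fosl1, Ier2, Atf3 and Srf. The share of all RNAs with that was not counted, and Atf3 is not among the 10154. Averaged over the groups, Egr1 ran from -0.55 around the group mean in replicate 2 to 0.42 in replicate 3. The gap between the lowest and highest number was 0.97, larger than for 99.7% of RNAs, and 9 of 10 members were above the median of all RNAs, 0.17. Ctgf ran the other way, with replicate 1 the highest in 3 of 4 groups and replicate 4 the lowest in 3 of 4. What the numbers stand for beyond a repeat of the experiment was not given in the sources used here.

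**Figure D5:**
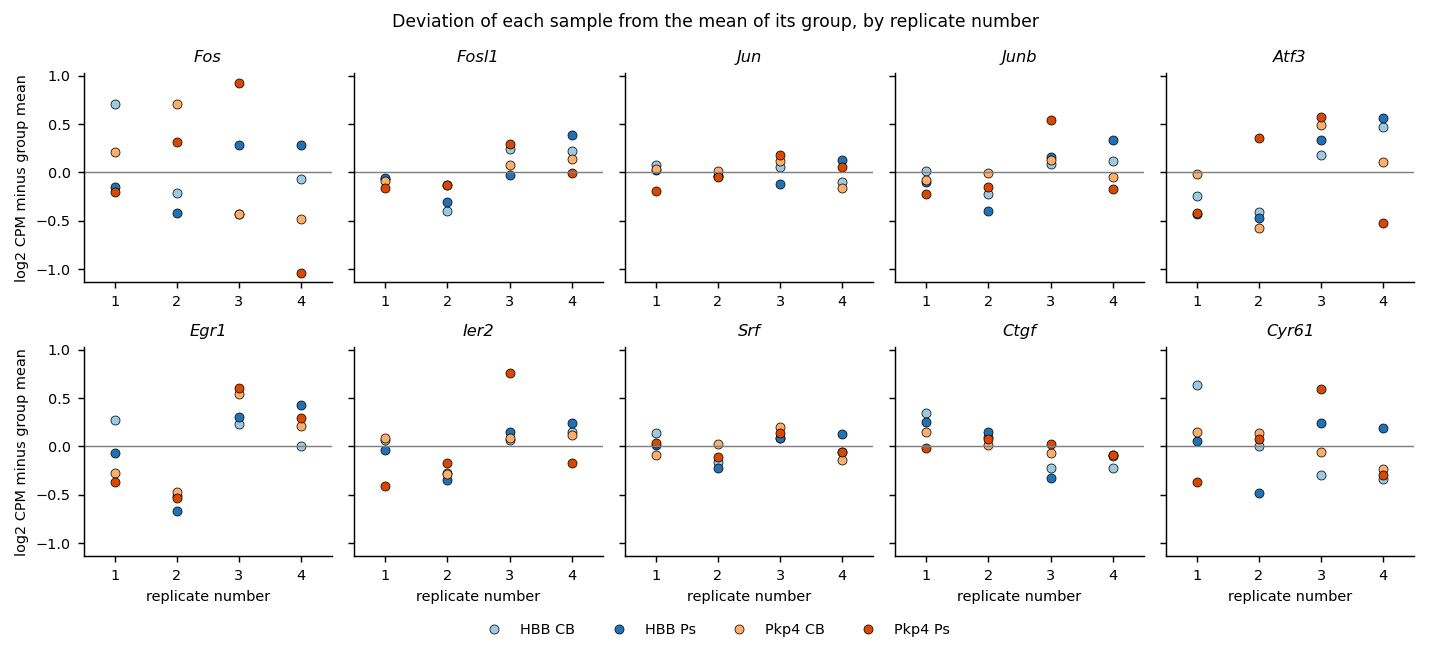
Log2 CPM minus the group mean (vertical axis) against the replicate number (horizontal axis) for the 10 members, with 1 point per group. For Egr1 all 4 groups lie lowest at replicate 2, and for Ctgf replicate 1 is the highest in 3 of 4 groups.

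Over the 16 samples, the RNA closest in pattern to Egr1 was its relative Egr2, with a root mean square difference of 0.14 between centred log2 CPM values, followed by Lgi4 (0.24) and Plk3 (0.29), against a median of 0.56 over 10153 RNAs. Egr2 was at 2.26, 2.35, 3.10 and 2.71 in Pkp4 cUTR cell bodies and at 3.44, 3.06, 3.41 and 3.31 in HBB cell bodies, a log2 fold change of -0.70 (SE 0.22, adjusted p = 0.0569). The RNAs nearest to Cyr61 were Lsp1 (0.26), Gxylt1 (0.27) and Tma7 (0.28), and those nearest to Ctgf were Cyp51, Glt8d1 and Fam160b1 (all 0.13). After Fosb, those nearest to Fos were Dnttip2 (0.44) and Ttc36 (0.46). These likenesses rest on shared libraries and groups, and are given as a description.

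The AU-rich letters were also read against localization over the table. The median log2 fold change of protrusions over cell bodies was -0.06 for 3118 RNAs with TATTTAT in HBB cells and -0.02 for 7966 without it, and -0.07 and -0.02 in Pkp4 cUTR cells. Among the 6 members with the letters were Cyr61, the highest in protrusions, and Jun, the lowest. The reads of Fosl1, Jun, Junb and Ctgf share ground with a gene on the opposite strand that is also in the table (Ccdc85b, Junos, Prdx2 and Gm15270). The libraries were stranded, but the strand setting of the counting is not given in the sources used here, so these 4 values are uncertain to that extent.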

How the data were processed

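RNA-Seq libraries of 16 samples were grouped by line, fraction and replicate number from the labels. Per the methods, the authors aligned reads to mm10 with STAR 2.4.2a, counted them per gene, applied limma-voom (limma 3.26.1), kept RNAs with a log-cpm above 0.5 in a sample and deposited log2 CPM. Here the whole reads behind each value were recovered (100% within 0.01) and refitted with the authors' scaled library sizes in limma-voom (limma 3.58.1, R 4.3.3), with 4 group means, moderated tests and Benjamini-Hochberg adjustment over 12900 RNAs. A call means an adjusted p under 0.05. The fit was tested on simulated reads. GENCODE vM21 matched 12765 RNAs (99.0%). Ratios were tested by exact permutation (scipy 1.17.1).

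The members and gene lists were chosen with earlier results of these data known. Named list genes were at most 3 per direction with the largest called changes at a mean log2 CPM above 1, and others named were chosen after their values were seen. Between the lines, the deviations of same-numbered samples correlated at 0.331 or more in each cell body pair and 0.196 or more in each protrusion pair (10154 RNAs), so a replicate block was fitted too. Other alternatives changed weights, scaling, pseudocount, filter and samples. Depth limits Fos and Atf3. The result of 1 gene list is not reported here.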

Additional observations from a re-analysis of the deposited data

Results flagged for a closer look

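Of 40 groups of 4 samples, 10 members in 4 groups, 2 held a sample far from the others, and chance alone marks about 1 group in 20. Junb stood at 6.07 log2 CPM in replicate 3 of the Pkp4 cUTR protrusions while the other samples lay between 5.29 and 5.37, a gap of 0.898 of the range. Ier2 stood at 4.76 log2 CPM in replicate 2 of the Pkp4 cUTR cell bodies while the others lay between 5.13 and 5.16, a gap of 0.926 of the range.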

How the results depend on the processing

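Of 8 alternatives beside leaving out samples, the block within each fraction gave no comparison between fractions. Under the others, Cyr61 and Jun kept their direction and calls between fractions in both lines. Leaving out single samples gave 2 to 4 members called in HBB and 3 to 5 in Pkp4 cUTR cells, 0 for the difference between the lines, and 0 to 1 between the lines in each fraction. Between cell bodies of the lines, 1 member (Fosl1) was called with scaling to total reads and with a mean log2 CPM above 1. With the replicate block, 3 members were called there with the number shared by all groups and 5 within each fraction (chosen after seeing the data), and 1 and 2 between protrusions. All RNAs called with the latter block numbered 2900 and 2489 in place of 1157 and 923, and 1 for the difference between the lines. Without both replicate 4 cell bodies 768 were called between cell bodies. Fractions were not paired by number in the main fit. Their same-numbered deviations correlated at 0.0455 to 0.389 in HBB cells and at -0.362 to 0.00248 in Pkp4 cUTR cells. A block within each line called 4 and 5 members, with Junb added in HBB cells (-0.29, adjusted p = 0.0335).

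Of the log2 fold changes of members that crossed 0, none was called. Scaling to total reads gave -0.089 for Fosl1 and -0.18 for Ier2 in HBB cells, -0.13 for Egr1, -0.20 for Ier2, -0.10 for Atf3 and -0.10 for Srf in Pkp4 cUTR cells, and differences between the lines of -0.0084 for Jun and -0.017 for Ier2. Quantile normalization gave 0.026 for Egr1 in HBB cells and a difference of -7.06e-05 for Ier2. Without both replicate 4 cell bodies the differences were -0.0038 for Jun and -0.0045 for Ier2, and Atf3 stood at 0.033 between cell bodies of the lines. The block within fractions gave -0.012 for Cyr61 there. Leaving out single samples gave, in HBB cells, -0.20 to 0.22 for Fos, -0.20 to 0.19 for Egr1 and -0.037 to 0.17 for Ier2. In Pkp4 cUTR cells it gave -0.069 to 0.32 for Egr1, -0.19 to 0.20 for Ier2 and -0.047 to 0.33 for Atf3. Differences between the lines ran from -0.059 to 0.35 for Egr1, -0.042 to 0.084 for Jun, -0.12 to 0.17 for Junb and -0.25 to 0.15 for Ier2. Between the lines, Atf3 ran from -0.24 to 0.13 and Cyr61 from -0.10 to 0.24 in cell bodies, and Srf from -0.021 to 0.097 and Ctgf from -0.025 to 0.17 in protrusions. The count models planned with other scalings of the libraries were not run, since the deposited values are log2 CPM. The cause of these changes was not tested.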
